A study of Arabidopsis thaliana with 6 samples.

Results

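The mitochondrial genome supplied 152 of the 33977 rows of a gene count table from Arabidopsis thaliana ovules. They are the rows whose identifiers begin with ATMG, the prefix of mitochondrion-encoded genes, and every such row was taken whatever its counts. A table of counts per exon bin (a stretch of annotated exon between neighbouring exon boundaries) held 182 bins with the same identifiers among 200285. The study set mature ovules of PRP8Aa prp8bb plants against ovules of wild type plants, with 3 libraries in each group, all from dissected flowers of 6-week-old plants. The PRP8Aa prp8bb group carries T-DNA insertions in both genes for PRP8, a core protein of the spliceosome, and the labels give its ovules as a mixture of PRP8A;prp8b and prp8a;prp8b. Each library of that group was therefore a pool in which PRP8A was disrupted in part of the ovules. RNA was total RNA depleted of ribosomal RNA, and strand was kept.

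Plant mitochondria keep a small genome of their own. It encodes core subunits of the respiratory chain and of ATP synthase, proteins for the maturation of c-type cytochromes, some ribosomal proteins, and the ribosomal and part of the transfer RNAs. The respiratory chain passes electrons from NADH through complex I, complex III and complex IV to oxygen, and complex V (ATP synthase) uses the resulting proton gradient to make ATP. Most of the other proteins that mitochondria need are encoded in the nucleus. Introns of mitochondrial genes are group II introns, which are removed inside the organelle without the spliceosome, and the transcripts of nad1, nad2 and nad5 are made in separate pieces and joined by trans-splicing. On nuclear chromosome 2, Arabidopsis also carries a large inserted copy of its mitochondrial DNA.

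That copy bears on which mitochondrial genes short fragments can be assigned to, so its sequence is shown first. The opening 60 bases of atp1 were identical in the mitochondrial genome and on chromosome 2 (RefSeq, TAIR10.1, chr2:3362505-3362564, plus strand). This gene encodes the alpha subunit of ATP synthase. The bases are shown to make plain that a fragment from here fits both places in RefSeq.
atp1, mitochondrial genome: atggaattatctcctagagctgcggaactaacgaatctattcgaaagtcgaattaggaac
atp1, nuclear copy: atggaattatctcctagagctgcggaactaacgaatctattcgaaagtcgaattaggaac

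A stretch of matR, the maturase gene that lies in an intron of nad1, differed from its copy (chr2:3401942-3402001, minus strand, written in the sense of matR) at 1 of 60 bases. The base that differs is in capitals.
matR, mitochondrial genome: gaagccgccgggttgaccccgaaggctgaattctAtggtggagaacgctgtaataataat
matR, nuclear copy: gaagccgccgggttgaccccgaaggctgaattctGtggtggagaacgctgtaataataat

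The opening of cox1, for the catalytic subunit of complex IV, is shown as the contrast, because none of its windows of 100 bases had an identical copy in a nuclear chromosome.
cox1, mitochondrial genome: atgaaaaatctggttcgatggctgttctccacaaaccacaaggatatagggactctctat

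Across the RefSeq mitochondrial genome (367808 bases), 67.6% of the windows of 100 bases had an identical match in a nuclear chromosome. Chromosome 2 alone accounted for 67.558% of the windows. For 13 genes without introns the whole coding sequence was present there without a single difference, among them atp1 (1524 bases), cob (1182 bases) and cox3 (798 bases). The rows of the count table use the mitochondrial sequence of the TAIR10 release, whose coordinates differ from those of RefSeq, so shared windows were counted in RefSeq and the rows' own coordinates were not mixed with them.

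Function was assigned to 41 rows, which make up 36 distinct genes. The other 111 rows were 24 of the length of transfer RNAs (71 to 88 bases) and 87 reading frames to which no function was given here. Of the 152 rows, 45 had no count in any library and 88 had at least 10 counts over the 6 libraries. Among rows of transfer RNA length 13 of 24 were at 0, and among other reading frames 29 of 87.

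The library labels were checked on the disrupted genes first. PRP8A had 910.4, 836.6 and 953.5 CPM (the row's count scaled to a common total of all gene counts in the library) in PRP8Aa prp8bb replicates 1, 2 and 3, against 1139, 1175 and 1245 CPM in wild type replicates 1, 2 and 3. The groups did not overlap. PRP8B, whose insertion need not lower counts outside the disrupted part, had 43.3, 37.4 and 44.1 CPM in PRP8Aa prp8bb and 36.7, 35.9 and 39.8 CPM in wild type. The 9 of 26 exon bins nearest its 3′ end held 31.7%, 6.56% and 17.8% of the bin counts of its group in PRP8Aa prp8bb, against 27.5%, 35.2% and 37.6% in wild type. The first of these lay within the wild type range and so went against the label of that library. For this reason PRP8Aa prp8bb samples are given below as libraries labelled mutant. All 3 enter each value, and members or listed nuclear genes whose call changes without the first are named.

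Gene counts totalled 11261844 to 12644525 in the libraries labelled mutant and 8497702 to 12460805 in wild type. In wild type replicate 1, members of a single bin had in sum 1.97 gene counts for each bin count, against 0.982 to 0.992 in the other libraries, and 77.6% of all its nonzero gene counts were even numbers. The ratio there was not the same for every row: it was 1.98 for rrn26, 1.96 for cox1 and 2 for matR, against 0.938 for atp8 and 1.25 for rps12. Shares of rows within that library, and its counting error, are therefore less certain than in the others. Summed CPM of 7 ovule markers was 200.2 to 245.2 in the libraries labelled mutant and 244.8 to 301.3 in wild type. For 5 pollen markers it was 295.7 to 879.7 against 347.3 to 354.9, and for 5 green tissue markers 4999 to 5607 against 5925 to 6131. Of these markers 2 pollen genes rose and 3 ovule genes fell in the level test described below, and their part in the mitochondrial values was not tested.

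The first comparison asked how much of the RNA was mitochondrial. Mitochondrion-encoded genes took 2.96%, 14.5% and 4.85% of all counts in the libraries labelled mutant, against 6.51%, 2.41% and 2.82% in wild type. Mutant replicate 2 was highest and wild type replicate 1 second, so the groups overlapped. The means were 7.43% ± 6.17 and 3.92% ± 2.26 (SD, n = 3 each), and the two-sided exact permutation test gave p = 0.50, where 3 against 3 libraries cannot go below 0.10. Without mutant replicate 2 the difference of 3.51 percentage points became -0.0101.

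Nearly all of this spread lay in the genes for ribosomal RNA, the RNA core of the mitochondrial ribosome. Together they took 1.49%, 13.1% and 3.34% of all counts in the libraries labelled mutant and 5.27%, 0.920% and 1.34% in wild type, a range of 14.2-fold from the lowest library to the highest. The other 149 rows took 1.47%, 1.402% and 1.51% in the libraries labelled mutant and 1.24%, 1.49% and 1.48% in wild type. These lay within a range of 1.22-fold over all 6 libraries. With ribosomal RNA counts removed from members and total, the means were 1.56% ± 0.062 in the libraries labelled mutant and 1.44% ± 0.109 in wild type (SD, n = 3 each; exact permutation p = 0.30). In bulk ovules, a different number of mitochondria or genome copies and a different amount of RNA from each cannot be told apart.

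**Figure D1:**
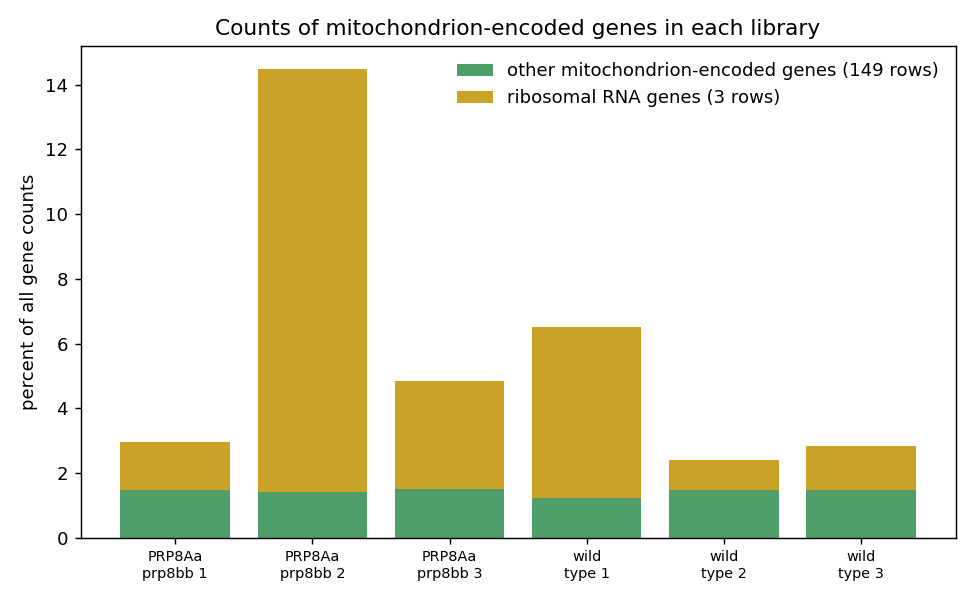
Percent of all gene counts in mitochondrion-encoded genes for each library (1 bar per library), split into ribosomal RNA genes and all other rows. The ribosomal RNA part runs from 0.920% to 13.1%, while the other part stays between 1.24% and 1.51%.

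The large ribosomal RNA, rrn26 (ATMG00020), had 11269, 92901 and 23952 CPM in the libraries labelled mutant and 35413, 6895 and 10301 CPM in wild type. The small ribosomal RNA, rrn18 (ATMG01390), had 3656, 37767 and 9402 CPM against 17298, 2301 and 3145 CPM. Both were highest in mutant replicate 2, and wild type replicate 1 came next, so the groups overlapped. The ratio of rrn26 to rrn18 counts was 3.08, 2.46 and 2.55 in the libraries labelled mutant and 2.05, 2.996 and 3.28 in wild type. The short 5S ribosomal RNA, rrn5 (ATMG01380), stood at 0.215 CPM on average. Ribosomal RNA made up 50.4%, 90.3% and 68.8% of the mitochondrial total in the libraries labelled mutant and 80.9%, 38.2% and 47.6% in wild type, and 73.7% of all member counts. Library preparation included a step that removes ribosomal RNA. Its efficiency was not measured, and its part in these values was not tested. Mutant replicate 2 and wild type replicate 1 had 18706217 and 7361474 exon bin counts, the fewest of their groups. In gene counts mutant replicate 2 was not the lowest, with 11278367 against 11261844 in mutant replicate 3. Plastid genes took 10.7%, 6.48% and 8.83% of all gene counts in the libraries labelled mutant and 8.91%, 11.6% and 11.3% in wild type. Mutant replicate 2 and wild type replicate 1 were the lowest of their groups in this plastid share.

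The next comparison took each gene on its own. Level was tested with edgeR's quasi-likelihood test on the whole table, 19297 genes after a filter on low counts, with Benjamini-Hochberg adjustment over all of them and a threshold of 0.05. Of the 152 members 70 passed the filter. At that threshold 5.85% of all genes tested differed between the groups (3.05% higher and 2.79% lower in the libraries labelled mutant), and none of the 70 members did in either direction. At an unadjusted p under 0.05 there were 12 members (17.1%), against 19.0% of all genes. DESeq2 called 3 members, where it called 7.64% of all genes. Without mutant replicate 1 edgeR called 4 members (6.32% of all genes), and without wild type replicate 1 it called 1 (7.12% of all genes). The median log2 fold change (mutant over wild type) of tested members was 0.25, against -0.01 over all genes tested, and 56 of the 70 had a value above 0. Groups did not overlap in CPM for 9 members that were higher in the libraries labelled mutant (12.9%), against 8.29% of all tested genes, and for 1 that was lower (1.43%), against 15.3%.

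Complex I, the NADH dehydrogenase that starts the chain, had the most rows with function, 14 rows for 9 genes. Its nad9 (ATMG00070), without windows shared with the nucleus, averaged 2224 CPM per kb over the 6 libraries. It had 1169, 1405 and 1419 CPM in the libraries labelled mutant and 1298, 1205 and 1150 CPM in wild type, with the groups overlapping. For nad9 a log2 fold change of 0.21 was estimated (SE 0.14, edgeR adjusted p = 0.465). The nad4L row (ATMG00650) had 603.7, 350.8 and 499.7 CPM against 377.6, 559.4 and 558.9 CPM, with mutant replicate 2 and wild type replicate 1 below the others.

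The nad5 subunit is spread over 3 rows whose transcripts are joined by trans-splicing. ATMG00060 had 725.3, 1012 and 984.0 CPM in the libraries labelled mutant and 710.4, 636.9 and 683.9 CPM in wild type, and the groups did not overlap. ATMG00513 had 227.2, 259.3 and 339.8 CPM against 199.2, 211.1 and 218.0 CPM, again without overlap. ATMG00665 had 39.4, 52.8 and 45.8 CPM against 36.2, 38.9 and 41.7 CPM, with mutant replicate 1 inside the wild type range. The log2 fold changes of the 3 rows were 0.51 (SE 0.17, adjusted p = 0.131), 0.47 (SE 0.15, adjusted p = 0.104) and 0.33 (SE 0.16, adjusted p = 0.304), so all were positive and none passed. ATMG00060 and ATMG00513 passed with DESeq2 (adjusted p = 0.0489 and 0.0484) and without mutant replicate 1 (adjusted p = 0.0124 and 0.0108), at a log2 fold change of 0.69 and 0.63. The authors' deposited table gives them log2 fold changes of 0.52 and 0.48 with adjusted p of 0.0489 and 0.0479.

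Of the rows for nad1, another membrane subunit in pieces, ATMG01120 had 292.0, 271.3 and 227.9 CPM in the libraries labelled mutant and 195.8, 200.4 and 232.0 CPM in wild type. Only mutant replicate 3 lay inside the wild type range. The row did not pass (log2 fold change 0.41, SE 0.13, adjusted p = 0.102). ATMG00516, a further piece of nad1, behaved otherwise, with 242.6, 127.7 and 236.5 CPM against 164.9, 240.1 and 236.3 CPM and a log2 fold change of -0.03. Rows that belong to 1 protein thus did not share an order of libraries.

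Complex IV reduces oxygen, and its cox1 (ATMG01360) was the most counted row after the ribosomal RNAs. It had 3734, 2269 and 3383 CPM in the libraries labelled mutant and 3003, 4256 and 4256 CPM in wild type, and the log2 fold change was -0.24 (SE 0.17, adjusted p = 0.496). The groups overlapped through wild type replicate 1. Its partner cox2 (ATMG00160) had 1057, 722.7 and 1040 CPM against 763.0, 1152 and 1063 CPM, and was lowest in the same 2 libraries, mutant replicate 2 and wild type replicate 1. In complex V, atp4 (ATMG00640) had 920.8, 968.1 and 805.1 CPM against 781.9, 869.3 and 865.8 CPM (log2 fold change 0.18, adjusted p = 0.497), with the groups overlapping.

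Of the ribosomal protein genes, rps3 and rpl16 overlap on one strand and share an exon bin of 134 bases. The rps3 row (ATMG00090) had 2075, 2573 and 2359 CPM in the libraries labelled mutant and 1657, 2010 and 1957 CPM in wild type, without overlap, and the log2 fold change was 0.41 (SE 0.15, adjusted p = 0.183). For rpl16 (ATMG00080) the values were 932.5, 1030 and 934.7 CPM against 892.6, 894.0 and 838.7 CPM, also without overlap (log2 fold change 0.23, adjusted p = 0.373). It had the smallest spread of the 40 members other than ribosomal RNA that averaged at least 10 CPM, 1.23-fold from lowest to highest library. The median of these 40 was 1.61-fold, against 1.44-fold for 12533 nuclear genes of that level, whose 95th percentile was 2.51-fold. Among the 40, atp8 (ATMG00480), a small subunit of ATP synthase, had the widest spread with 7.70-fold: 20.9, 8.78 and 27.2 CPM against 3.53, 24.4 and 23.9 CPM. Its lowest value is that of wild type replicate 1, where its gene count was not above its bin count as in most rows, and the other 5 libraries lay between 8.78 and 27.2 CPM. For cytochrome c maturation, ccmB (ATMG00110) had 110.2, 60.9 and 101.5 CPM against 80.5, 117.7 and 121.5 CPM. The protein translocation gene mttB (ATMG00570) had 37.1, 55.0 and 47.8 CPM against 37.4, 35.4 and 43.1 CPM.

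**Figure D2:**
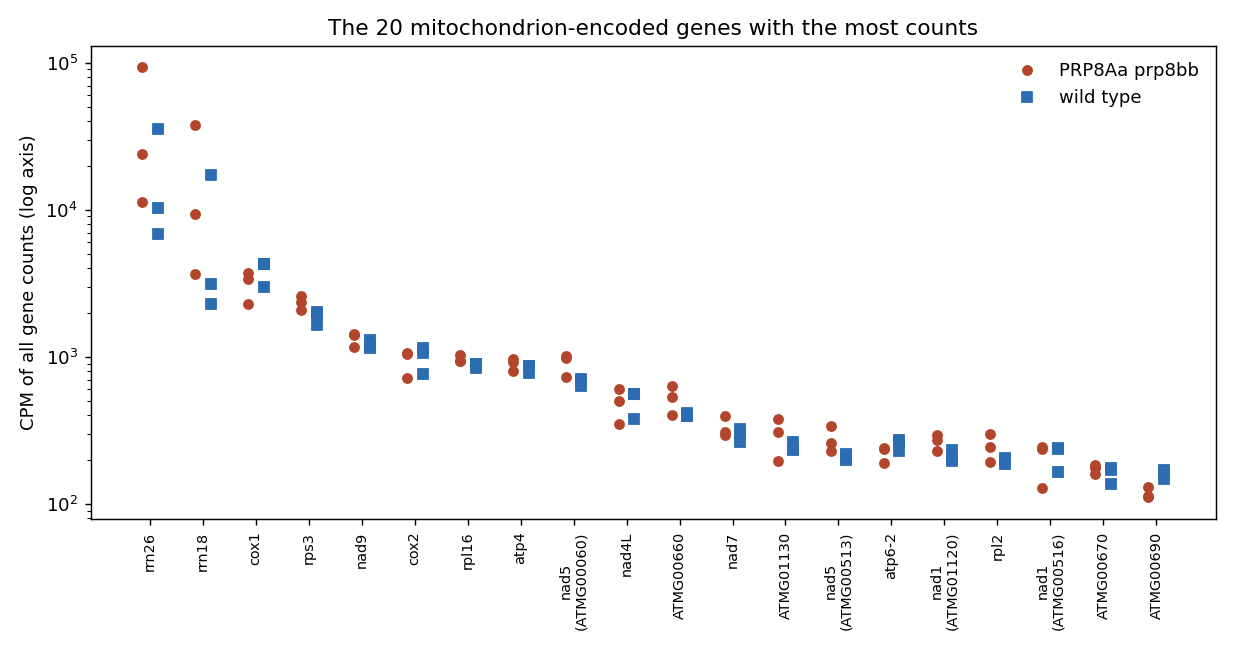
CPM of all gene counts (log axis) for the 20 mitochondrion-encoded rows with the highest mean, 1 point per library, with PRP8Aa prp8bb libraries to the left of wild type in each column. The ribosomal RNA rows spread over 13.5-fold (rrn26) and 16.4-fold (rrn18) between libraries, while nad9, rpl16 and atp4 stay within 1.24-fold.

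Among reading frames without an assigned function, ATMG00690 had the smallest p of all members. The authors' deposited table names it ORF240A and describes it as a subunit of the FO part of ATP synthase. It had 130.4, 112.5 and 110.6 CPM in the libraries labelled mutant and 147.0, 165.3 and 169.7 CPM in wild type, and the groups did not overlap. With a log2 fold change of -0.37 (SE 0.10, adjusted p = 0.0624) it lay just outside the threshold. It passed with DESeq2 (adjusted p = 0.0367) and without wild type replicate 1 (adjusted p = 0.0349), and the authors' deposited table gives a log2 fold change of -0.37 with adjusted p of 0.0348. As a share of the mitochondrial counts other than ribosomal RNA, ATMG00690 had a log2 fold change of -0.51 (SE 0.10, adjusted p = 0.0126), in a fit that called 5.71% of all genes and was chosen after the data had been seen.

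The largest positive log2 fold changes were those of rrn26 (1.44, SE 1.05, adjusted p = 0.528) and rrn18 (1.32, SE 1.21, adjusted p = 0.626). Without mutant replicate 2 these values were 0.0092 for rrn26 and -0.21 for rrn18, and without wild type replicate 1 they were 2.498 and 2.83. Next came ATMG00450 (0.96, SE 0.51), ATMG00540 (0.96, SE 0.31, adjusted p = 0.115) and nad4 (ATMG00580; 0.73, SE 0.44). With 1 library left out ATMG00450 ranged between 0.54 (without mutant replicate 2) and 1.46 (without wild type replicate 2). The value of nad4 ranged between 0.40 (without wild type replicate 1) and 1.299 (without wild type replicate 3). The nad4 row averaged only 3.23 CPM. In unscaled exon bin counts, bin 1 of its group had 1112, 568 and 895 in the libraries labelled mutant and 305, 1257 and 1226 in wild type. Bin 2 had 1123, 581 and 923 against 311, 1275 and 1272, and bin 3 had 73, 56 and 86 against 10, 42 and 84. The level of these bins was not tested. ATMG00540 had 2.37, 2.66 and 3.02 CPM in the libraries labelled mutant and 1.18, 1.61 and 1.52 CPM in wild type, without overlap. The lowest were rps4 (ATMG00290; -0.83, SE 0.89), which had 48 counts in all libraries together, the row of transfer RNA length ATMG09980 (-0.41, SE 0.74), ATMG00690, cox3 (ATMG00730; -0.35, SE 0.26) and atp9 (ATMG01080; -0.31, SE 0.36). The value of rps4 ranged between -1.83 (without mutant replicate 1) and -0.24 (without wild type replicate 2), and that of cox3 between -0.60 (without wild type replicate 3) and -0.07 (without wild type replicate 1).

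**Figure D3:**
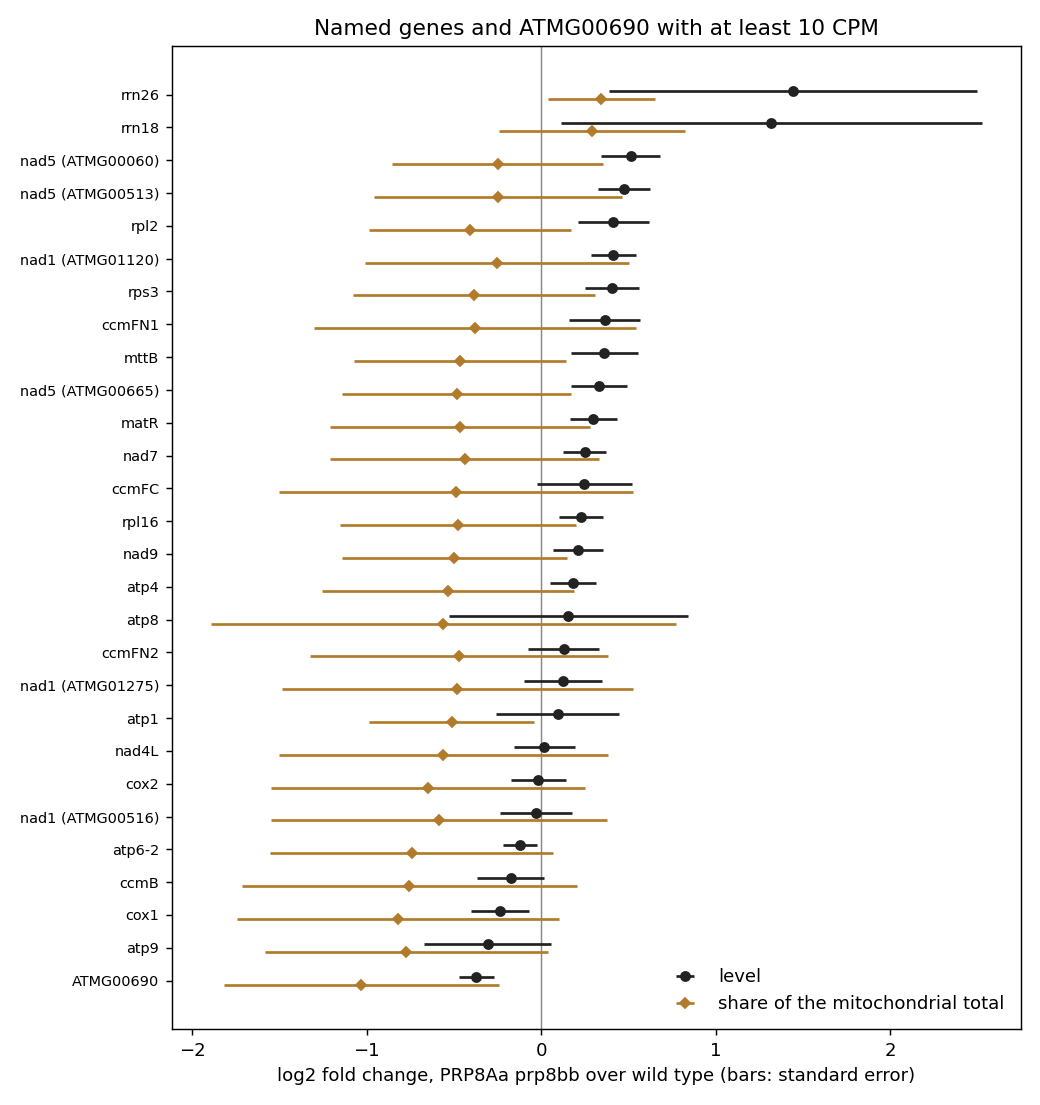
Log2 fold change of PRP8Aa prp8bb over wild type for named members with at least 10 CPM and for ATMG00690, as level (circles) and as share of the mitochondrial total (diamonds), with standard errors from edgeR (n = 3 libraries each). Levels lie from -0.37 for ATMG00690 to 1.44 for rrn26, and the errors of the shares are the wider ones for the genes that do not encode ribosomal RNA.

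A further comparison set each gene against the mitochondrial total of its library instead of all counts. For this fit each gene was offset by the total of the compartment that encodes it, again over 19297 genes, of which 5.57% passed. No member passed by edgeR and DESeq2 called none (7.51% of all genes). At an unadjusted p under 0.05 there was also no member, against 18.8% of all genes. With 1 library left out, the fit called atp9 (-1.98, adjusted p = 0.00907) without mutant replicate 1, where 6.16% of all genes passed, and no member without wild type replicate 1 (6.63%). With TMM factors taken within each compartment ATMG00690 passed (-0.70, adjusted p = 0.00752), where 5.96% of all genes did. Ribosomal RNA filled 38.2% to 90.3% of the total, and 67 of 70 members had a negative log2 fold change, with a median of -0.49 against -0.05 over all genes. The 3 positive ones were rrn26 (0.34, SE 0.31), rrn18 (0.29, SE 0.53) and ATMG00540 (0.16, SE 0.65). Ribosomal RNA is part of this total, so a rise in it lowers the share of every other row. The signs and the lack of calls therefore cannot be read gene by gene. Without ribosomal RNA in the total (chosen after the data were seen), the median over 68 tested members was 0.11. At an unadjusted edgeR p under 0.05 there were 8 members, against 3651 of 19295 genes. With TMM factors within each compartment the median was -0.08, with 3 members, against 3661 of 19297 genes. As a share of the mitochondrial total, cox1 had 12.6%, 1.57% and 6.97% in the libraries labelled mutant and 4.61%, 17.7% and 15.1% in wild type. As a share of the total without ribosomal RNA, cox1 had 25.4%, 16.2% and 22.3% against 24.2%, 28.6% and 28.8%. On that second scale rps3 had 14.1%, 18.3% and 15.6% against 13.3%, 13.5% and 13.2%, with no overlap.

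By class and as percent of the total without ribosomal RNA, complex I rows held 24.8%, 27.1% and 27.6% in the libraries labelled mutant and 26.2%, 22.9% and 23.5% in wild type. Complex IV rows held 32.7%, 21.4% and 29.2% against 30.4%, 36.4% and 36.0%, and ribosomal protein rows 21.9%, 27.9% and 23.4% against 22.2%, 20.9% and 20.2%. Complex V rows held 8.27%, 8.52% and 7.18% against 8.52%, 7.88% and 8.03%, and the 87 other reading frames 10.3%, 13.2% and 10.5% against 10.7%, 9.79% and 10.1%. Each of these classes overlapped between the groups. In CPM, complex I rows (3634, 3793 and 4175 against 3259, 3415 and 3470 CPM), ribosomal protein rows (3208, 3909 and 3545 against 2760, 3111 and 2992 CPM) and other reading frames (1509, 1849 and 1584 against 1330, 1458 and 1491 CPM) did not overlap, each at the smallest exact permutation p the design allows, 0.10 (0.333 adjusted over the classes). As percent of the whole mitochondrial total, none of the 10 classes passed an exact permutation test adjusted over the classes, which cannot pass with 3 libraries a group. The smallest unadjusted exact permutation p was 0.30, for rows of transfer RNA length.

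The other members were not alike in mutant replicate 2 and wild type replicate 1, the libraries richest in ribosomal RNA. Of the 40 members with at least 10 CPM, 14 (35.0%) had these as their 2 lowest libraries, against 22.2% of nuclear genes of that level. They included cox1, cox2, nad4L, nad7, ccmB, atp6-2 and the nad1 row ATMG00516. Among the 14, wild type replicate 1 had 1.96 gene counts for each bin count for cox1, but 0.938 for atp8 and 0.892 for ATMG01350. The part of this uneven ratio in the order of libraries was not tested. Another 12 of the 40 (30%) were highest in mutant replicate 2, against 5.98% of nuclear genes. These included rps3, rpl16, rpl2, atp4, mttB and the nad5 rows ATMG00060 and ATMG00665. ATMG00030, a reading frame near rrn26 on the opposite strand, had 0.949, 7.45 and 6.75 CPM in the libraries labelled mutant and 13.9, 0.563 and 1.61 CPM in wild type. It was highest in wild type replicate 1, where the ribosomal RNAs were second to mutant replicate 2.

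**Figure D4:**
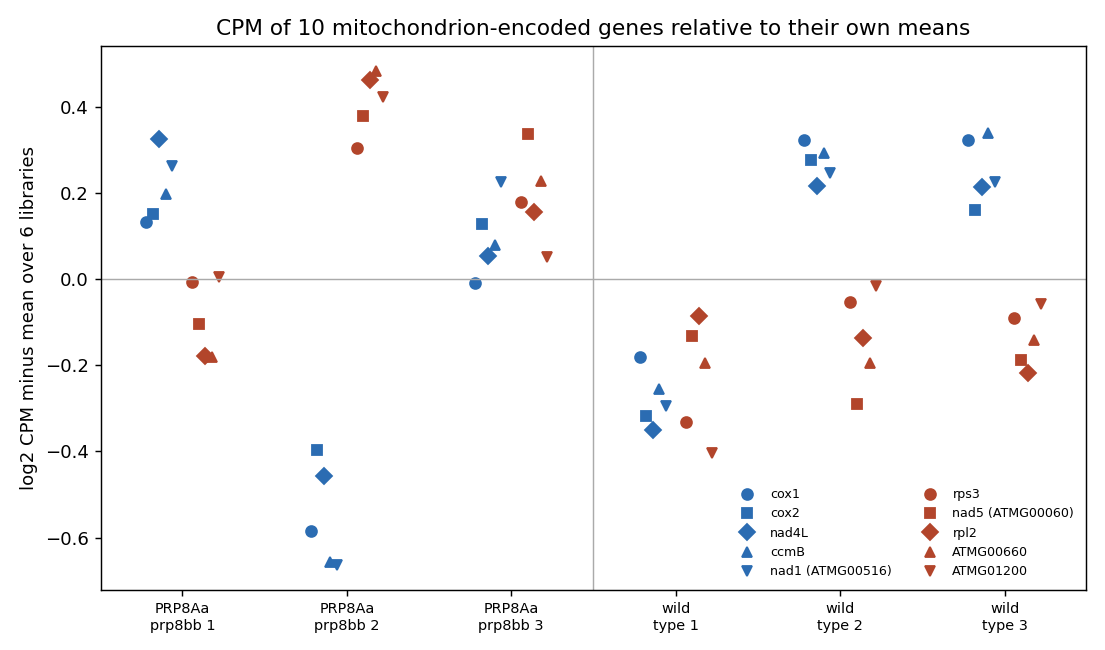
Log2 CPM of 10 members in each library, minus the member's own mean over the 6 libraries, for 5 members low in mutant replicate 2 and wild type replicate 1 (left of each column, blue) and 5 high in mutant replicate 2 (right, red). The members were chosen after their values had been seen. In mutant replicate 2 all 5 of the first set lie below 0 and all 5 of the second above 0.

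At gene rows, median CPM per kb was lower where more of the windows were shared with the nucleus. The 13 named rows with under 30% of their windows found in the nucleus had a median of 1500 CPM per kb, with a range of 1.82 for rrn5 to 11730 for rrn26. For 9 rows with 30% to under 100% the median was 168 and the highest 654.1 CPM per kb. In the 18 rows with all windows shared it was 2.67 and the highest 38.0 CPM per kb. These are gene counts, and exon bin counts can differ from them. The bins of the fully shared nad2 row ATMG00285 held 645 to 2828 counts a library, and its gene row about 0.01 to 0.02 of these. Bin 1 of the nad4 group held 305 to 1257 counts, and bin 1 of the group with the nad2 row ATMG01320 held 404 to 1449. Both are fully shared, and their gene rows averaged 3.23 and 2.93 CPM. For others, such as cob with 5 to 57 bin counts a library, the bins were low too. The headers state no counting of fragments that fit several places, so levels of different mitochondrial genes cannot be ranked from these counts. The same row can be compared between libraries, but with less certainty for wild type replicate 1. There the gene counts for each bin count differed between rows, with 2 for matR and 0.938 for atp8. Among fully shared rows cob (ATMG00220), the only mitochondrion-encoded subunit of complex III, had 32 counts over 6 libraries, and ccmC, rpl5 and atp6-1 had none.

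**Figure D5:**
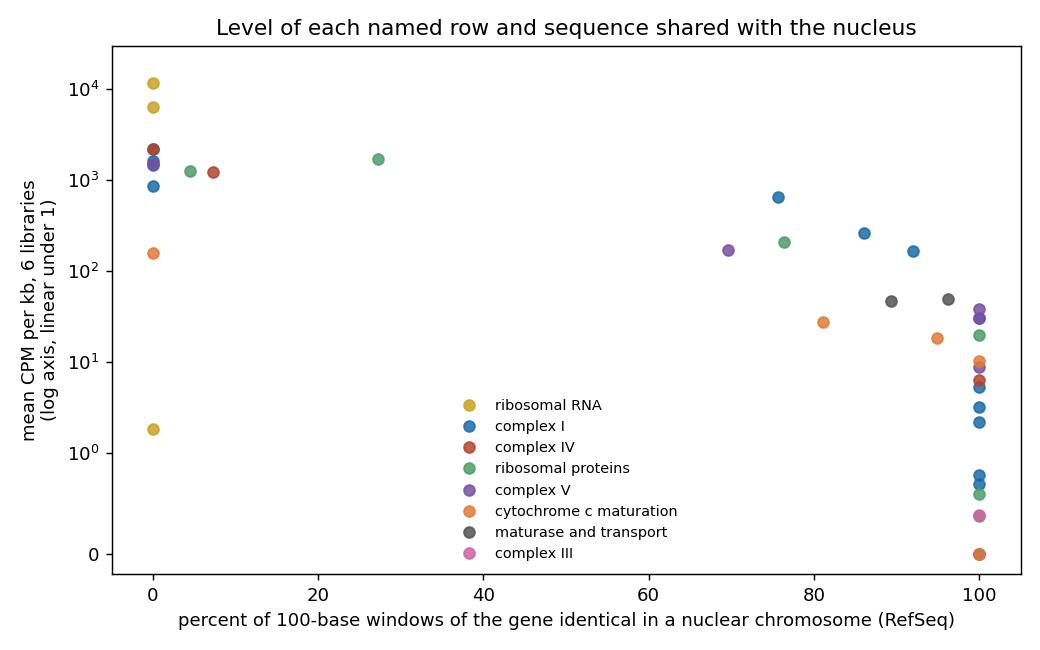
Mean CPM per kb over the 6 libraries (log axis, linear under 1) of each named row against the percent of its windows of 100 bases that occur unchanged in a nuclear chromosome of RefSeq. Rows with all windows shared lie at or below 38.0 CPM per kb, and rows with none shared, other than rrn5, at or above 159.

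Counts for several of these genes stood at the rows of the nuclear copy. The chromosome 2 row that holds the copy of atp1, AT2G07698, had 11952, 9440 and 10083 counts in the libraries labelled mutant and 6172, 12032 and 11957 counts in wild type. The mitochondrial row of atp1 itself (ATMG01190) had 150, 169 and 147 against 182, 115 and 119 counts. For cob the nuclear row AT2G07727 had 4691, 3771 and 4719 against 2354, 4400 and 4780 counts, and for cox3 the nuclear row AT2G07687 had 1727, 950 and 1119 against 664, 2077 and 1815 counts. The row AT2G07725, which holds the copy of rpl5, had 239, 198 and 214 against 86, 189 and 178 counts. Transcripts of the organelle and of the copy cannot be told apart from these counts. The genes are identical in both places in RefSeq, but the rows use the TAIR10 mitochondrial sequence, which was not compared with the copy. Fragments that fit several places were not counted, and why the nuclear rows hold these counts was not tested. None of the 4 nuclear rows passed the level test: log2 fold changes were 0.09 (SE 0.12, adjusted p = 0.753) for AT2G07698, 0.22 (SE 0.13, adjusted p = 0.380) for AT2G07727, -0.23 (SE 0.27, adjusted p = 0.718) for AT2G07687 and 0.55 (SE 0.16, adjusted p = 0.0766) for AT2G07725.

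The reverse held for atp8, with 1300 counts at its mitochondrial row over the 6 libraries and 0 at the copy's row AT2G07707, and for rps12, with 523 and 58 counts (AT2G07675). Strand was kept in the counts. Of 2 rows that overlap by 396 bases on opposite strands, ATMG00040 had 3356 counts and ATMG00050 had 40.

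Exon bins were compared as usage, the share of a bin among the bins of its gene group, with edgeR's diffSpliceDGE on 116071 bins. Here 39 bins of 14 groups with mitochondrial members were tested and none passed, where 0.00172% of all bins did (2 bins). At an unadjusted p under 0.05 there were 4 of the 39, a larger share than the 1.59% of all bins (1844 of 116071). The smallest p (0.00733, adjusted p = 0.999999) belonged to bin 3 of the nad4 group, which held 3.15%, 4.64% and 4.50% of the group's bin counts in the libraries labelled mutant and 1.59%, 1.63% and 3.24% in wild type, with overlap. Next were bin 1 of the cox2 group (12.3%, 11.2% and 10.95% against 17.9%, 13.7% and 15.4%), without overlap, and bin 2 of ccmFC (11.985%, 17.3% and 7.83% against 2.78%, 3.30% and 7.59%), also without overlap but on 1 to 32 counts a library. Bin 1 of the nad5 row ATMG00060 held 22.3%, 13.7% and 16.3% against 20.4%, 24.95% and 23.4%, with overlap. For the nad2 row ATMG00285 the bins held 2828, 2066 and 2489 counts against 645, 2338 and 2803, while the gene row had about 0.01 to 0.02 of these.

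The last comparison turned to nuclear genes that serve mitochondria, in the same level test in which 5.85% of all genes passed. Of 32 nuclear subunits of the respiratory chain all were tested, and none rose or fell, with a median log2 fold change of 0.07. The PSST subunit of complex I (AT5G11770) had 48.4, 64.8 and 58.3 CPM in the libraries labelled mutant and 39.5, 44.1 and 42.5 CPM in wild type, without overlap. It did not pass (log2 fold change 0.53, SE 0.16, adjusted p = 0.0857), but did with DESeq2 (adjusted p = 0.0447), when low counts stayed in (adjusted p = 0.0391) and without mutant replicate 1 (0.69, adjusted p = 0.0185). ATP2-1, ATP2-2, ATP2-3 and the ATP synthase delta prime subunit were also higher without overlap, and CA1, CA2 and SDH2-2 lower. None of these passed, with edgeR adjusted p from 0.173 to 0.378. Over all tested genes 8.29% were higher and 15.3% lower without overlap. Among 24 factors for mitochondrial gene expression 1 rose and none fell. This was MORF8 (AT3G15000), an RNA editing factor of mitochondria and plastids, with 320.1, 298.5 and 333.5 CPM in the libraries labelled mutant and 222.1, 219.7 and 253.3 CPM in wild type. The groups did not overlap and the log2 fold change was 0.53 (SE 0.10, adjusted p = 0.0123), with adjusted p of 0.0818 without mutant replicate 3 and 0.0524 without wild type replicate 2. Those fits called 431 of 19658 and 861 of 19529 genes in all, against 1128 of 19297 with all libraries. PMH1 (AT3G22310), an RNA helicase of mitochondria, had 59.5, 80.9 and 66.7 CPM against 55.3, 48.2 and 48.6 CPM, also without overlap. It passed only without mutant replicate 1 among the settings run (0.68, adjusted p = 0.0360, against 0.54 and 0.117 with all libraries). RPOTMP (AT5G15700) had 31.4, 28.8 and 31.9 CPM against 24.1, 20.1 and 26.2 CPM (log2 fold change 0.46, edgeR adjusted p = 0.0656). It passed when low counts stayed in (adjusted p = 0.0457). PNPASE (AT5G14580) had 33.3, 30.4 and 30.5 CPM against 24.1, 23.5 and 26.4 CPM (0.42, adjusted p = 0.0570). Neither of these overlapped, and SUV3 (AT4G14790) was lower without overlap (-0.19, adjusted p = 0.229). None of 6 genes for mitochondrial DNA maintenance passed.

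Of 14 genes listed for the mitochondrial stress response, not all of them known to be induced by it, 11 were tested. Of these 1 fell and none rose. This was UGT74E2 (AT1G05680), a glucosyltransferase gene, with 10.6, 5.76 and 10.2 CPM in the libraries labelled mutant against 19.5, 16.5 and 14.6 CPM in wild type, without overlap (log2 fold change -0.86, SE 0.20, adjusted p = 0.0313). Its call was lost without any single library other than mutant replicate 1, with adjusted p from 0.0572 to 0.0868. Over all genes, those fits called 431 of 19658 (without mutant replicate 3) to 1399 of 19647 (without wild type replicate 1). With all libraries 1128 of 19297 were called. AOX1A (AT3G22370), the alternative oxidase that passes electrons to oxygen without complex III and complex IV, had 6.01, 5.59 and 6.22 CPM against 3.30, 5.71 and 3.53 CPM. It did not pass (log2 fold change 0.57, SE 0.25, adjusted p = 0.251), and wild type replicate 2 lay within the range of the libraries labelled mutant. Another pair of these genes passed without mutant replicate 1. OM66 (AT3G50930), an outer membrane protein, had 57.3, 91.5 and 83.6 CPM in the libraries labelled mutant and 49.2, 66.7 and 52.6 CPM in wild type, with overlap, and a log2 fold change of 0.56 (adjusted p = 0.242) that became 0.78 (adjusted p = 0.0222) without that library. DIC2 (AT4G24570), a dicarboxylate carrier, had 53.0, 32.0 and 33.0 CPM against 73.5, 54.7 and 54.6 CPM, without overlap. Its log2 fold change was -0.57 (adjusted p = 0.133), and -0.78 (adjusted p = 0.0290) without mutant replicate 1. With the replicate block it was -0.58 (adjusted p = 0.0232). Also lower without overlap were NDA1 (-0.50, edgeR adjusted p = 0.305), NDA2 (-0.47, adjusted p = 0.173) and NAC13 (-0.36, adjusted p = 0.248). None of them passed. Only AOX1B, which was not tested for its low counts, was higher without overlap.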

How the data were processed

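Whole-number counts, deposited without normalization, came from featureCounts per the file headers, on TAIR10 annotation, per gene and per exon bin, with strand setting 1 and without fragments that fit several places. Per the submitters' processing notes, Trimmomatic, STAR, Subread 1.6.0 and DESeq2 were used. The authors' deposited table holds log2 fold changes and adjusted p-values of their own comparison. Samples were grouped by title. Replicates are called biological in the labels, but separate plants are not named, and p-values then reflect only how much these libraries vary, which may be technical.

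Genes were tested with edgeR 4.0.16 in R 4.3.3 (robust quasi-likelihood, TMM factors from 0.876 to 1.05, filterByExpr), standard errors being the log2 fold change over the root of F. The share test replaced library size by compartment totals, and bins reaching 10 counts in 3 or more libraries were tested with diffSpliceDGE. DESeq2 1.42.0 was the alternative tool. Other alternatives were no filter, other scalings, a replicate block, wild type replicate 1 halved, and each library left out. The level, share and bin tests were run on simulated counts with a common dispersion. There the mitochondrial total of a library moved as a whole, so a move through ribosomal RNA alone was not simulated. The biological coefficient of variation was 14.9%.

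Rows were named through RefSeq (TAIR10.1): 24 by exon lengths within 3 bases, 10 by notes on nuclear copies, 6 by distance to a matched neighbour and 1 as the only one over 2100 bases. Of 32548 nuclear genes matched by identifier, 99.95% had identical start and end. Genes named are those with a listed function, the 10 highest by mean CPM, members past the threshold, the 5 of largest log2 fold change each way, the 3 bins of smallest p, and list genes that passed, with AOX1A. Others were named after their values were seen. Members and lists were chosen with earlier results of these data known.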

Additional observations from a re-analysis of the deposited data

Results flagged for a closer look

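The mitochondrial genome held 12 further rows without an ATMG identifier, which the rule for members leaves out. They were noticed because their summed CPM was higher in every library labelled mutant than in every wild type library, with 223.5, 283.3 and 262.7 CPM against 154.2, 186.1 and 198.5 CPM (means 256.5 and 179.6). Of these rows 4 were tested, and ENSRNA049495564 rose (log2 fold change 0.61, SE 0.14, edgeR adjusted p = 0.0295), while ENSRNA049495550 (0.77, SE 0.21, adjusted p = 0.0761), ENSRNA049495561 (0.38, SE 0.25) and ENSRNA049495577 (0.26, SE 0.20) did not pass.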

How the results depend on the processing

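Depth limits the thinly counted rows: 82 of 152 members could not be tested, and a member with under 10 counts in all gives no usable fold change. With DESeq2, 3 members passed the level test, against 0 with edgeR. Leaving out 1 library gave 0 to 4 members for level (4 without mutant replicate 1, among them rpl2 and ATMG00660, and 1 without wild type replicate 1) and 0 to 1 for share (atp9 without mutant replicate 1). TMM factors within each compartment gave 1 member for share, ATMG00690 (-0.70, adjusted p = 0.00752), as did leaving ribosomal RNA out of the total, an alternative added after the data were seen. Listed nuclear genes past the threshold were 2 of 73 tested, where 1128 of 19297 genes passed in all. They became 4 of 75 when low counts stayed in (1448 of 26393 genes in all), adding the PSST subunit and RPOTMP. They were 0 to 6 of 73 with 1 library left out (6 without mutant replicate 1, adding the PSST subunit, PMH1, OM66 and DIC2). Without mutant replicate 1, 1235 of 19545 genes passed in all. There were 0 without mutant replicate 3 (431 of 19658 genes) and without wild type replicate 2 (861 of 19529 genes). The difference in mitochondrial share ranged from -0.0101 (without mutant replicate 2) to 5.74 percentage points with 1 library left out. Other reversals also came with 1 library left out: the level of rrn18 ranged from -0.21 to 2.83, and the share of ATMG00540 from -0.32 to 0.68, with -0.25 without mutant replicate 1 and -0.01 without mutant replicate 3. No member bin passed in any setting. Same-numbered libraries share only a number (correlations of deviations -0.05, -0.05 and 0.10). The fit with the replicate block gave 0 members for level, 0 for share and 0 member bins. It gave 3 of 73 listed nuclear genes, where 886 of 19297 genes passed in all. The causes were not tested.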
